A study of Mus musculus with 6 samples.

Results

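The genes described here are 10 markers of the endocardial cushion mesenchyme and of the valves that form from it, namely Postn, Tgfbi, Prrx1, Prrx2, Sox9, Twist1, Msx1, Msx2, Snai2 and Penk. They were chosen by gene symbol, and all 10 were found among the 30619 rows of the count table. RNA was measured in whole mouse hearts at E12.5 of embryonic development, labelled as mixed embryonic cardiac cells, in 3 wild-type control libraries and 3 libraries titled as a conditional knockout (CKO) of Trim28, the gene of a heterochromatin co-repressor. The genotype label of the second group reads TRIM28 knockdown. No source used here gives the Cre driver, the deleted exons or how many hearts entered a library. The series concerns how TRIM28 acts in the formation of the trabecular and compact chamber walls, and the cushions and valves are other structures of the same hearts.

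Endocardial cushions are swellings of matrix in the atrioventricular canal and outflow tract. Endocardial cells there lose their junctions under BMP, TGF-beta and Notch signals and invade the matrix as mesenchyme, a change called epithelial to mesenchymal transition (EMT), and neural crest cells join them in the outflow tract. The resulting mesenchyme grows, deposits matrix and is remodelled into valve leaflets and septa. SNAI2 (Slug) and TWIST1 are transcription factors of EMT and of mesenchymal growth, SOX9 keeps cushion cells dividing and drives cartilage-like matrix genes, and MSX1, MSX2, PRRX1 and PRRX2 are homeodomain factors of embryonic mesenchyme. Periostin (Postn) and TGFBI are related secreted matrix proteins with fasciclin domains, and Penk encodes the precursor of enkephalin opioid peptides.

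The libraries held between 34400841 and 39763233 counts. Trim28 lay at 305, 391 and 443 CPM (reads of the gene scaled to the library size) in controls 1, 2 and 3. In CKO 1, 2 and 3 it lay at 172, 314 and 165 CPM. It was not called in the test across all genes (log2 fold change of CKO over control -0.81, SE 0.34, adjusted p = 0.339). Of 18 other settings, 2 called it lower, limma-voom (adjusted p = 0.0165) and edgeR without robust estimation (adjusted p = 0.0194). With the library labelled CKO 2 left out, the log2 fold change was -1.17 (adjusted p = 0.0763). The library labelled CKO 2 lay within the control range, and its level goes against its label. It is called CKO 2 below, and whether a gene is said to rise or fall depends on the labels being right. The level also counts any exons that were not deleted. A ribosomal RNA row took 0.126% to 0.522% of counts in controls and 0.563% to 0.79% in CKO, with no overlap. Xist and Y-linked transcripts were both present in 3 libraries. CKO 2 and CKO 3 held Y-linked transcripts with Xist at most at 0.203 CPM, and control 2 held Xist with Y-linked transcripts at 0.026 CPM. Nothing in the labels says that libraries of a group came from separate animals or pools, so the p-values speak only to the spread among these 6 libraries.

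Of the 10 genes, Postn and Tgfbi fell, Prrx2 rose, and the other 7 did not pass the test. The matrix genes fell by modest amounts, to 0.819 (Postn) and 0.854 (Tgfbi) of the control level, and Prrx2 rose 1.40-fold. These are calls at an adjusted p under 0.05 in edgeR's quasi-likelihood test, with Benjamini-Hochberg adjustment over the 17557 genes that passed a filter on low counts. All 10 genes passed that filter. Across all tested genes 4.1% were called, 1.07% as lower and 3.03% as higher in CKO. The median log2 fold change of CKO over control was -0.17 over the 10 genes and 0.00 over all tested genes, and 7 of the 10 values were negative. The genes were chosen with earlier results of these data in view, so the count is a description of them.

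Promoter sequences are shown for the 3 genes that were called, since Postn and Tgfbi moved together and Prrx2 moved against them. Each is the 250 bases before the transcription start in RefSeq on GRCm38 (mm10), printed 5′ to 3′ on the gene's own strand, here plus for all 3. They lie at chr3:54360857-54361106 for Postn, at chr13:56609336-56609585 for Tgfbi and at chr2:30845117-30845366 for Prrx2. Postn has a further RefSeq start upstream, and the one nearest the start in the GENCODE M21 annotation was taken. GENCODE places the start of Prrx2 further upstream, at 30834972, so this window lies inside the gene as GENCODE draws it. The last 63 bases of the Tgfbi window also lie inside that gene's GENCODE extent. Capitals mark TATAAA, the core of a TATA box, and CANNTG, the E-box that basic helix-loop-helix factors such as TWIST1 bind.
Postn: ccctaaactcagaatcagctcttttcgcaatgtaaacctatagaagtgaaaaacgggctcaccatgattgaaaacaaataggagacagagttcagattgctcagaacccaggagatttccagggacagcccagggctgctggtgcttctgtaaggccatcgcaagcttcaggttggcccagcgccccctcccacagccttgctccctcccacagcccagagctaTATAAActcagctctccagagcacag
Tgfbi: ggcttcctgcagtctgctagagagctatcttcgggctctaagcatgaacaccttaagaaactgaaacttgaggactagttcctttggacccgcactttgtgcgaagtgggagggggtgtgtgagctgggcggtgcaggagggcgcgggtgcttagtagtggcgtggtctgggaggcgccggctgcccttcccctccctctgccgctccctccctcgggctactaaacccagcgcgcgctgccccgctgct
Prrx2: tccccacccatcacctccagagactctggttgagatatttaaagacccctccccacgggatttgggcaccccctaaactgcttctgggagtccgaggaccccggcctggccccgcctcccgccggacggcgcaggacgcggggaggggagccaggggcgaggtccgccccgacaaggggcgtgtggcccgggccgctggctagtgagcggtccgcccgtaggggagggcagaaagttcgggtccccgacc

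In these letters, Postn holds 1 TATAAA, which begins 26 bases before the start, and the windows of Tgfbi and Prrx2 hold none on either strand. Of the other members, Twist1 holds 1, which begins 126 bases before its start. TATAAA is found in 12.4% of 32851 RefSeq windows of the same length. No CANNTG was found in any of the 3 windows, while 66.2% of all windows hold at least 1. The share of G and C was 52% in Postn, 62.4% in Tgfbi and 70% in Prrx2. Of the other genes, windows were found for Prrx1, Twist1, Msx1 and Msx2, and none was printed for Sox9, Snai2 or Penk. All 250 bases of the Msx2 window and 60 of those of Prrx1 lie inside the gene as GENCODE draws it. CANNTG occurs once each in the windows of Msx1 and Msx2, and the one in Msx1 reads CAGGTG on the opposite strand, the form that Snail factors such as SNAI2 bind, which 17.2% of all windows hold. TAATTA, a core site of homeodomain factors, occurs once each in the windows of Prrx1 and Msx2 and in 4.84% of all windows. A match of letters is a description and does not show binding.

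Levels can be compared between genes only per length, here as CPM per kb of annotated exon. On this scale the matrix genes were the most abundant in controls, with Postn at 68.5 ± 7.19 and Tgfbi at 54.9 ± 2.5 CPM per kb (SD, n = 3). Their control ranges did not overlap. Twist1 (23.6 ± 5.25) and Prrx2 (21.8 ± 0.0934) came next with overlapping ranges, followed by Sox9 (12.6 ± 1.23) and Snai2 (7.70 ± 0.383), whose ranges overlapped with no neighbour. Penk (3.0 ± 0.674), Msx1 (2.96 ± 0.526) and Prrx1 (2.52 ± 0.475) formed a low group, each overlapping the next. Msx2 (2.30 ± 0.172) overlapped the range of Prrx1 from 2.06 to 3.01. Postn lay above 96% of the tested protein-coding genes on this scale and Msx2 above 31.2%. Prrx1 has 11.1 kb of annotated exon, and the values per kb divide by all annotated exons, whichever isoforms these hearts used.

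**Figure D1:**
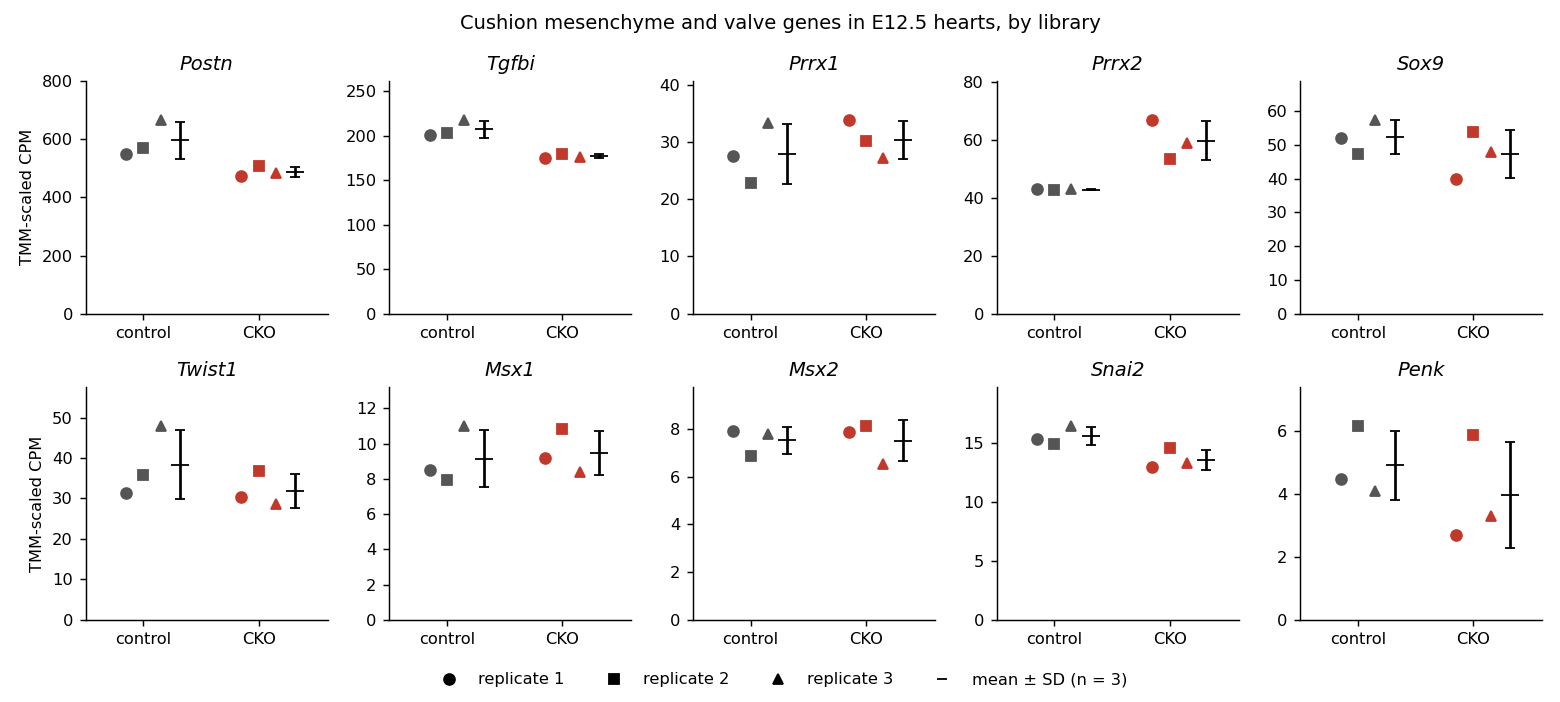
TMM-scaled CPM (vertical axis, from 0, a separate scale in each panel) of each of the 10 genes in the 3 control (grey) and 3 CKO (red) libraries, with symbols for replicate numbers and a bar for the group mean ± SD. Postn, Tgfbi and Snai2 lie lower in all 3 CKO libraries than in any control, Prrx2 lies higher, and the other 6 genes overlap.

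Postn (ENSMUSG00000027750.16, chromosome 3, 54361109 to 54391037, plus strand) encodes periostin, a matrix protein that cushion mesenchyme secretes as valves mature. It was measured at 549, 571 and 667 CPM in controls 1, 2 and 3 and at 473, 507 and 483 CPM in CKO 1, 2 and 3. Every CKO library lay below every control, and control 3 stood above the other two controls. The log2 fold change was -0.29 (SE 0.06, adjusted p = 0.0156), which is a level in CKO of 0.819 of control with a 95% interval from 0.745 to 0.899. The call was lost without control 3 (log2 fold change -0.21, adjusted p = 0.10), without CKO 1 (adjusted p = 0.0864) and without CKO 3 (adjusted p = 0.0905). Without the library labelled CKO 2, the log2 fold change was -0.32 (adjusted p = 0.00686).

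Tgfbi (ENSMUSG00000035493.10, chromosome 13, 56609523 to 56639562, plus strand) encodes the TGF-beta induced protein, a matrix protein with fasciclin domains that binds collagen and integrins. Its level was 201, 203 and 218 CPM in the controls and 175, 179 and 176 CPM in CKO. The groups did not overlap, and the CKO libraries lay close together, with a coefficient of variation of 1.22%. Its log2 fold change was -0.23 (SE 0.05, adjusted p = 0.0167), and the CKO level was 0.854 of control with a 95% interval from 0.791 to 0.921. This gene was not called without control 2 (adjusted p = 0.0516), control 3 (adjusted p = 0.121) or CKO 3 (adjusted p = 0.0949), nor with Y-linked expression as a covariate (adjusted p = 0.0576). Without the library labelled CKO 2 the log2 fold change was -0.24 (adjusted p = 0.00595). The ratio of Postn to Tgfbi counts, which needs no scaling between libraries, ran from 2.74 to 3.06 in controls and from 2.70 to 2.83 in CKO. These ratios overlapped (exact two-sided permutation p = 0.5, adjusted p = 0.7, with 0.1 the smallest p that 3 against 3 libraries allow).

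Prrx2 (ENSMUSG00000039476.13, chromosome 2, 30834972 to 30881251, plus strand) encodes a paired-type homeodomain factor of embryonic mesenchyme. It lay at 42.9, 42.6 and 43.0 CPM in the controls and at 66.9, 53.5 and 58.9 CPM in CKO. The controls were nearly level, and every CKO library was higher, CKO 2 the least so. On the log2 scale the rise was 0.48 (SE 0.08, adjusted p = 0.000998), a 1.40-fold rise with a 95% interval from 1.25 to 1.56. Prrx2 was called whichever library was left out (adjusted p up to 0.0113), and its log2 fold change was 0.55 without the library labelled CKO 2 (adjusted p = 9.4e-06).

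Its paralog Prrx1 (ENSMUSG00000026586.16, chromosome 1, 163245119 to 163313710, minus strand), which acts in the same mesenchymal lineages, was measured at 27.6, 22.8 and 33.3 CPM in controls and 33.9, 30.1 and 27.2 CPM in CKO. The groups overlapped. Its log2 fold change was 0.12 (SE 0.13, adjusted p = 0.692), and its 95% interval as a fold, 0.901 to 1.32, reaches into the interval of Prrx2. The difference between the paralogs was tested as the ratio of Prrx2 to Prrx1 counts within each library. It was 1.56, 1.87 and 1.29 in controls and 1.98, 1.78 and 2.17 in CKO. The ratios overlapped, and an exact two-sided permutation test gave p = 0.2, where 3 against 3 libraries cannot go below 0.1 (adjusted p = 0.6 over 3 ratios of related genes). With that floor the test could not pass 0.05, so it says nothing on whether the paralogs responded alike. Prrx1 overlaps 3 predicted genes, of which Gm20471 lies on the opposite strand, and no source used here says whether the counting used strand.

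**Figure D2:**
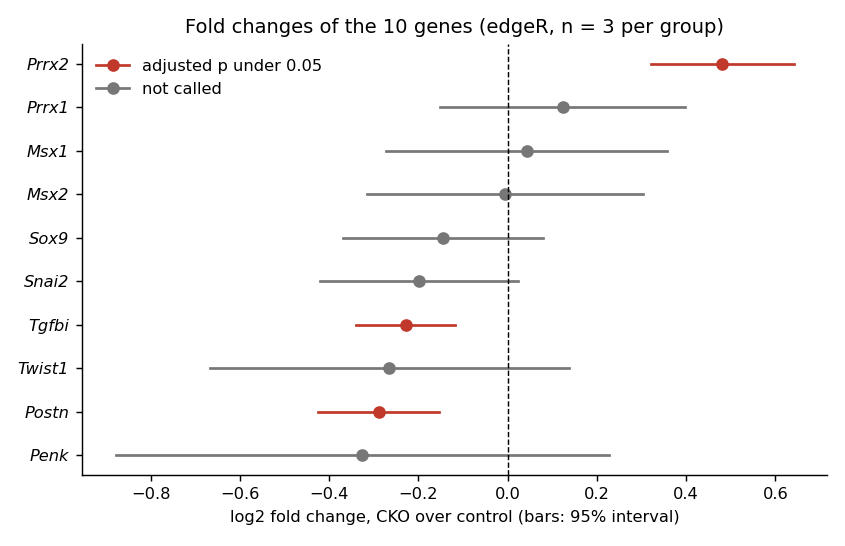
Log2 fold change of CKO over control (horizontal axis) for each of the 10 genes, with its 95% interval from the edgeR test and called genes in red. The intervals of Prrx2, Postn and Tgfbi exclude 0, and those of the other 7 genes include it.

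The factors of EMT and mesenchymal growth had lower means in CKO and were not called. Snai2 (ENSMUSG00000022676.7, chromosome 16, 14705852 to 14709385, plus strand), a zinc finger repressor of epithelial junction genes, was at 15.3, 14.9 and 16.4 CPM in controls and 12.9, 14.5 and 13.3 CPM in CKO. All 3 CKO values lay below the controls, with CKO 2 the nearest to them. Over the 10 genes the groups did not overlap in 4, with CKO lower in Postn, Tgfbi and Snai2 and higher in Prrx2. Among all tested genes they did not overlap in 22.1%, with CKO lower in 10.6% and higher in 11.5%. Its log2 fold change was -0.20 (SE 0.11, adjusted p = 0.346), with a 95% interval as a fold from 0.747 to 1.02. Snai2 was called under none of the 18 other settings run.

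Twist1 (ENSMUSG00000035799.6, chromosome 12, 33957671 to 33959829, plus strand), a basic helix-loop-helix factor that promotes growth and migration of cushion cells, was at 31.5, 35.7 and 47.9 CPM in controls and 30.5, 36.7 and 28.7 CPM in CKO. Control 3 stood far above the other controls, and CKO 2 lay inside the control range. The log2 fold change was -0.26 (SE 0.17, adjusted p = 0.496). It became -0.08 without control 3 (adjusted p = 0.815) and -0.38 without CKO 2 (adjusted p = 0.359). With the ribosomal RNA share as a covariate it was 0.14 (adjusted p = 0.870). With no filter on low counts Twist1 was called lower (adjusted p = 0.0403).

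Sox9 (ENSMUSG00000000567.5, chromosome 11, 112782224 to 112787760, plus strand) was at 52.0, 47.3 and 57.5 CPM in controls and 39.8, 54.0 and 48.0 CPM in CKO. The groups overlapped through CKO 2 and CKO 3. The log2 fold change was -0.15 (SE 0.10, adjusted p = 0.525), and the 95% interval as a fold ran from 0.774 to 1.06.

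The Msx genes, homeodomain factors that BMP signals induce in cushion cells, were expressed at low levels in both groups. Msx1 (ENSMUSG00000048450.10, chromosome 5, 37820485 to 37824583, minus strand) was at 8.51, 7.95 and 11.0 CPM in controls and 9.16, 10.8 and 8.36 CPM in CKO. Msx2 (ENSMUSG00000021469.9, chromosome 13, 53466884 to 53473074, minus strand) was at 7.90, 6.88 and 7.80 CPM in controls and 7.89, 8.14 and 6.54 CPM in CKO. Both overlapped fully between the groups. The log2 fold changes were 0.04 (SE 0.15, adjusted p = 0.929) for Msx1 and -0.01 (SE 0.15, adjusted p = 0.991) for Msx2, with 95% intervals as folds from 0.828 to 1.28 and from 0.804 to 1.23. A change of 1.2-fold lies within both intervals and could not be told from none. The ratio of Msx1 to Msx2 counts averaged 1.21 ± 0.175 in controls and 1.26 ± 0.0860 in CKO (SD, n = 3, exact two-sided permutation p = 0.7, adjusted p = 0.7, in the same test that cannot go below 0.1).

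Penk (ENSMUSG00000045573.9, chromosome 4, 4133531 to 4138819, minus strand), the proenkephalin gene, was the member with the fewest counts, from 98 to 237 in a library. It was at 4.47, 6.15 and 4.09 CPM in controls and 2.70, 5.87 and 3.28 CPM in CKO. CKO 2 lay between controls 1 and 2, and the other CKO libraries lay below all controls. The log2 fold change was -0.33 (SE 0.26, adjusted p = 0.578), and without CKO 2 the adjusted p was 0.0680. Penk overlaps A830012C17Rik on the opposite strand.

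**Figure D3:**
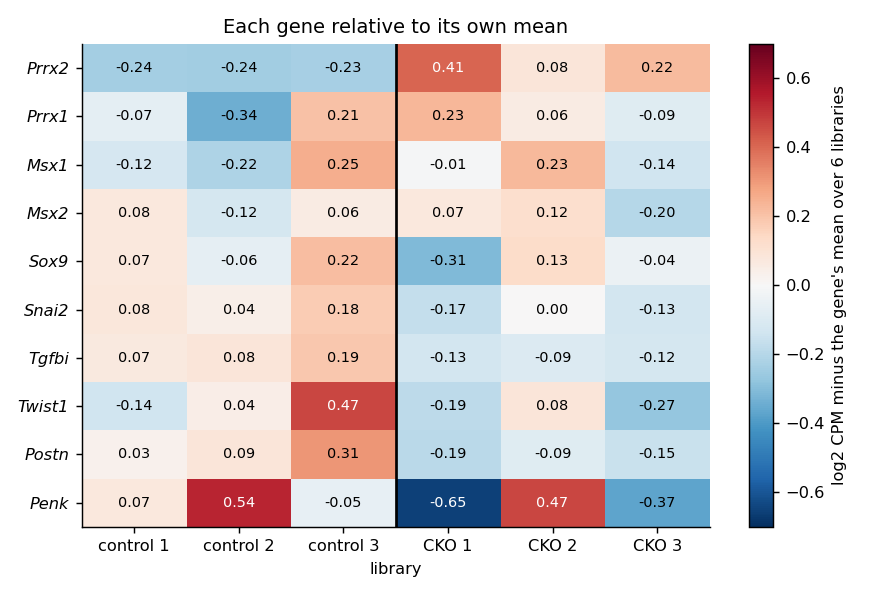
Log2 CPM of each gene minus its own mean over the 6 libraries (colour and printed value), with genes ordered by fold change and the line parting controls from CKO. Control 3 and CKO 2 hold the highest value of their group for 8 of the 10 genes each.

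Single libraries stood above the rest of their group for most members. Control 3 had the highest control value for 8 of the 10 genes, all but Msx2 and Penk, and CKO 2 had the highest CKO value for 8, all but Prrx1 and Prrx2. For Prrx2 control 3 led by a small margin, at 43.0 against 42.9 CPM in control 1. Over all 17557 tested genes, control 3 was the highest control for 33.2% and CKO 2 the highest CKO library for 34.8%. The library labelled CKO 2, with Trim28 in the control range, was nearer the controls than CKO 1 and CKO 3 for Postn, Tgfbi, Prrx2 and Snai2. Of the called genes named below, it was also the nearest for Foxc1, Kdr, Erbb3, Col6a1, Col6a2, Col9a1, Fbln2, Cd44, Itgav, Tek and Cdh5. It lay between CKO 1 and CKO 3 for Meox1, Tgfb3, Smad7, Smad9, Oprd1 and Acta2. For Edn1, Ccn1, Ccn2, Myh11 and Krt19 it was the farthest from the controls. Edn1, for example, was at 17.4, 20.3 and 17.9 CPM in CKO 1, 2 and 3. How often this library was the nearest over all genes was not counted. Over the 6 libraries, log2 CPM of Postn correlated with Tgfbi (Pearson r = 0.97), Snai2 (0.94) and Twist1 (0.87), and that of Prrx2 ran opposite to Snai2 (-0.92) and Tgfbi (-0.90). Of the 45 pairs, 34 had a positive r, the others were negative down to -0.92, and the median was 0.35. These values describe 6 libraries that share the group difference, the depth and the scaling. Other genes with a mean of at least 5 CPM, leaving out predicted and unnamed genes, were ranked by likeness to the mean profile of the 10. The most alike over the 6 libraries were Pigm (r = 0.997), Qtrt2 (0.99), Ptk7 (0.99), Amer1 (0.98) and Hapln1 (0.98). Hapln1 encodes a link protein of the hyaluronan matrix of cushions. None of these 5 was called between the groups.

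The other genes of the cushion pathway were read from 6 lists. Among 27 other transcription factors of EMT and valve mesenchyme, 2 were lower, none was higher and 25 were not called, with a median log2 fold change of -0.04. Foxc1, a forkhead factor of mesenchyme and of valve and outflow development, fell from 42.4 to 31.7 CPM on average (log2 fold change -0.42, SE 0.07, adjusted p = 0.00223) and was called whichever library was left out. Meox1, a homeobox gene of mesenchyme, fell by 0.33 on the log2 scale (SE 0.07, adjusted p = 0.0127) and was called in 4 of 6 such fits, with an adjusted p of up to 0.104. Nfatc1, which valve endocardium requires, was at -0.18 (adjusted p = 0.152), and the retinoic acid receptor gene Rara at 0.17 (adjusted p = 0.193).

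Among 41 signals and receptors of cushion EMT, 4 were higher and 2 lower, with a median of -0.01. Endothelin 1 (Edn1) rose from a mean of 10.5 to 18.5 CPM (log2 fold change 0.82, SE 0.11, adjusted p = 0.000175). The TGF-beta ligand gene Tgfb3, which cushion mesenchyme itself expresses, rose from 37.9 to 52.8 CPM (0.48, SE 0.07, adjusted p = 0.000692). Smad7, a feedback inhibitor of TGF-beta and BMP signals, rose by 0.37 (adjusted p = 0.00346), and the BMP effector gene Smad9 by 0.50 (adjusted p = 0.00826, up to 0.0633 when a library was dropped). Edn1, Tgfb3 and Smad7 were called in all 6 leave-one-out fits. With the ribosomal RNA share as a covariate, Smad7 was still called (adjusted p = 0.0335), and Edn1 (adjusted p = 0.0643) and Tgfb3 (adjusted p = 0.283) were not. The 2 lower genes, which the naming rule did not pick from this list and which were added after their values were seen, were receptors. The rule did pick Erbb3 from the list of neural crest, glia and neurons. Kdr, the VEGF receptor of endothelium, fell from 177 to 148 CPM (-0.26, adjusted p = 0.0460) and was called in 1 of 6 leave-one-out fits (highest adjusted p 0.217). Erbb3, a neuregulin receptor of cushion mesenchyme and of neural crest, fell from 27.8 to 21.8 CPM (-0.35, adjusted p = 0.0461) and was called in 2 of them (highest adjusted p 0.207). Tgfb3 lies across Ttll5 and Edn1 across a predicted gene on the opposite strand. Msx1 and Msx2, which stand downstream of BMP signals, were not called beside these.

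Matrix genes moved in both directions. Of 38, 3 were higher, 2 were lower and 33 were not called, with a median of -0.05. The collagen VI genes Col6a1, from 118 to 159 CPM (0.44, adjusted p = 0.00421), and Col6a2, from 138 to 179 CPM (0.38, adjusted p = 0.000884), rose. Col9a1, a cartilage-type collagen gene that SOX9 activates, fell from 61.1 to 39.7 CPM (-0.62, SE 0.11, adjusted p = 0.00866) and was called in 5 of 6 leave-one-out fits (highest adjusted p 0.0865). Fbln2, a fibulin of cushion matrix, fell by 0.30 on the log2 scale (adjusted p = 0.0170) and was called in 2 of them (highest adjusted p 0.103).

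**Figure D4:**
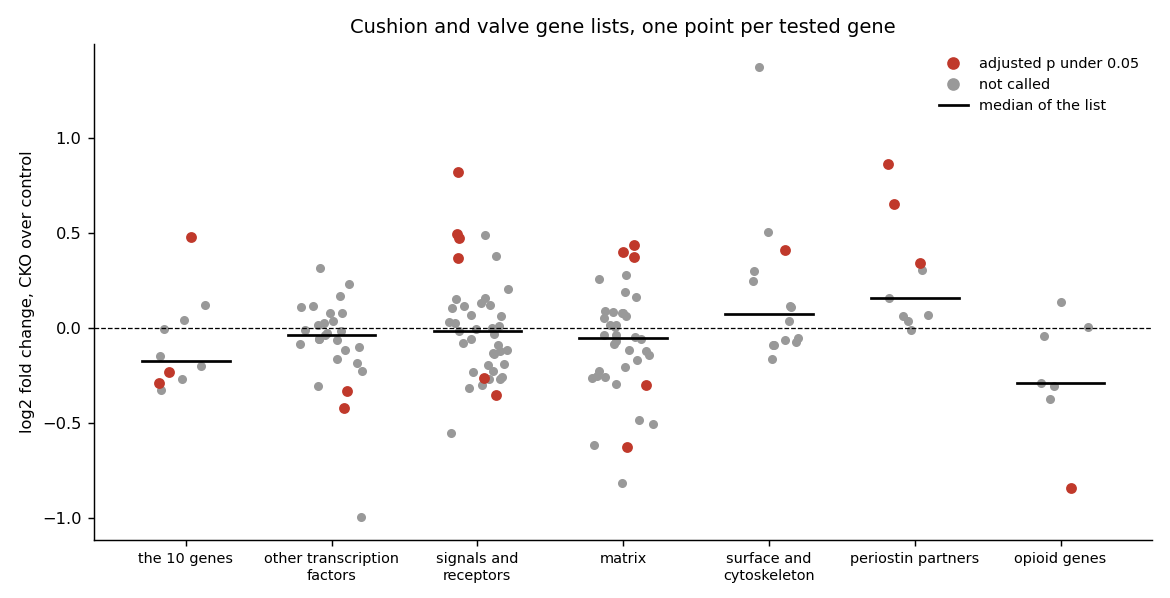
Log2 fold change of CKO over control (vertical axis) for every tested gene of the 10-gene set and of the 6 further lists, with called genes in red and a line at each list's median. Called genes lie on both sides of 0 among signals and matrix genes, above 0 among periostin partners and below 0 among other transcription factors and opioid genes.

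Of 14 surface and cytoskeletal markers of mesenchyme, the hyaluronan receptor gene Cd44 rose from 83.3 to 111 CPM (0.41, adjusted p = 0.00189), and the other 13 were not called, among them S100a6 (0.50, adjusted p = 0.113), Fap (1.38, adjusted p = 0.142) and Pdgfra (-0.16, adjusted p = 0.224). Fap was low in both groups, at a mean of 0.773 CPM in controls and 1.99 CPM in CKO, and the groups overlapped. The list's median was 0.07. Of 9 genes of fasciclin-domain proteins and of periostin's receptors, processing enzymes and neighbours in the matrix, 3 were higher and none lower, with a median of 0.16. These were Ccn1 (0.65, adjusted p = 1.8e-05) and Ccn2 (0.86, adjusted p = 0.00371), which encode matricellular proteins, and Itgav (0.34, adjusted p = 0.00111), the integrin alpha V subunit through which periostin is bound. All 3 were called in each leave-one-out fit, while Postn itself was lower. With the ribosomal RNA covariate Ccn1 and Ccn2 were still called, and Itgav was not (adjusted p = 0.0684). The integrin partner gene Itgb3 was at 0.16 (adjusted p = 0.421). Among 7 tested opioid genes of 11 listed, 1 was lower and none higher, with a median of -0.29. Oprd1, the delta opioid receptor that enkephalins bind, averaged 4.28 CPM in controls and fell to 2.41 in CKO (-0.84, SE 0.22, adjusted p = 0.0363), and passed in 2 of 6 leave-one-out fits (highest adjusted p 0.217). The receptor genes Oprl1 (-0.29, adjusted p = 0.262) and Oprk1 (-0.37, adjusted p = 0.620) and the nociceptin precursor gene Pnoc (-0.30, adjusted p = 0.802) were not called. Pnoc was low as well, at a mean of 1.07 CPM in controls and 0.865 CPM in CKO.

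In RNA of whole hearts, fewer cells of a type and less RNA per cell cannot be told apart, and the 10 genes are also expressed outside the cushions. Summed over the 8 markers of endocardium and endothelium, the lining from which cushion mesenchyme arises, levels were 1555 to 1642 CPM in controls and 1283 to 1513 CPM in CKO, with CKO 2 the highest of the CKO libraries, as for Postn and Tgfbi. Of these 8 markers, 4 were lower and none higher, among them Tek (-0.36, adjusted p = 0.00195) and Cdh5 (-0.30, adjusted p = 0.00839). The 8 cartilage markers found sum to 240 to 317 CPM in controls and 160 to 234 CPM in CKO, also without overlap, and most of that sum was Col2a1, which cushions express as well. Col9a1, which stands in the matrix list too, was the 1 called of its 7 tested markers, and Col9a3 was at -0.31 (adjusted p = 0.171). Summed, the 5 smooth muscle markers ran the other way (1628 to 1657 CPM in controls, 2232 to 2706 CPM in CKO). Acta2 and Myh11 were among 3 called higher. Most of the sum was Acta2, at a mean of 1208 CPM in controls and 1891 CPM in CKO. Myocd had a lower mean in CKO and was not called (log2 fold change -0.20, adjusted p = 0.191). Within CKO the smooth muscle sums were 2232, 2382 and 2706 CPM in libraries 1, 2 and 3. Prrx2 was highest in CKO 1 and lowest in CKO 2. The 8 cardiomyocyte markers sum to 29441 to 31389 CPM in controls and 31581 to 32733 CPM in CKO, without overlap. Of these 8 markers, 2 were called higher and none lower. The part of any of these in the results of the 10 genes was not tested, and the order of 3 libraries cannot decide it.

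Markers of epicardium (405 to 420 CPM in controls, 401 to 442 CPM in CKO) overlapped between the groups, though Krt19 rose (0.59, adjusted p = 0.00165), and so did those of neural crest, glia and neurons (43.3 to 53.3 and 45.9 to 46.4 CPM), though Erbb3, which stands in this list too, was called lower. Markers of pharyngeal arch and head mesenchyme, which share Prrx, Msx and Twist1 expression, sum to at most 3.16 CPM in controls and 5.27 CPM in CKO over 10 genes. Markers of lung, foregut and liver sum to at most 1.66 CPM. The limb and body wall list lay at 85.4 to 94.0 CPM in controls and 97.3 to 119 CPM in CKO, nearly all of it from Tbx5, which is also a cardiac gene and was not called (0.23, adjusted p = 0.0689). Macrophage markers were at 85.9 to 93.2 CPM in controls and 96.6 to 109 CPM in CKO, without overlap. Of the 8 macrophage markers, 1 was called higher and none lower. Erythroid markers were at 1255 to 2170 CPM in controls and 1135 to 1266 CPM in CKO. No marker found in the table was at 0 in all 6 libraries.

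**Figure D5:**
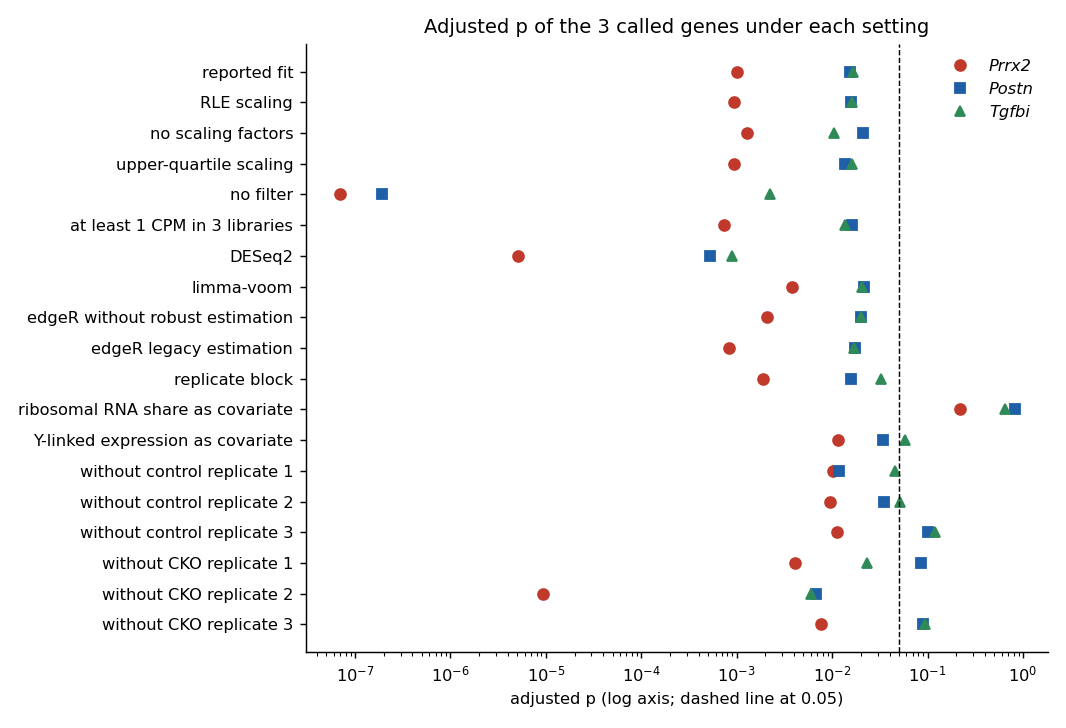
Adjusted p (horizontal log axis, dashed line at 0.05) of Prrx2, Postn and Tgfbi under the reported fit and 18 other settings. Prrx2 passes the threshold under every setting except the ribosomal RNA covariate, and Postn and Tgfbi cross it when single libraries are left out.

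The 3 calls held under RLE, upper-quartile and no scaling, under both other filters and under DESeq2 and limma-voom. With the log2 share of the ribosomal RNA row as a covariate none of the 10 genes was called, with adjusted p of 0.219 for Prrx2, 0.655 for Tgfbi and 0.820 for Postn. The log2 fold change of Prrx2 was 0.45 in that fit, that of Tgfbi -0.15 and that of Postn -0.10. Of all tested genes 56 were called in it, and of the called genes named above only Smad7, Ccn1, Ccn2 and Acta2 were among them. The share was higher in every CKO library than in every control, with 0.522% in control 1 the nearest to 0.563% in CKO 3.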

How the data were processed

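Poly(A) RNA of E12.5 mouse hearts was sequenced on an Illumina HiSeq from NEBNext Ultra libraries, per the labels' protocols. The deposited values are raw counts of reads by gene symbol, per the labels, on mm10, per the submitters' processing notes. The aligner, counter, annotation and strand setting were not given in the sources used here. Groups and replicate numbers came from the titles. Symbols altered by a statistics program (2017) were restored from GENCODE M21, which also gave positions and exonic lengths. Counts of genes passing filterByExpr (minimum count 10, total 15; 17557 genes, 0.0756% of counts removed) were scaled with TMM factors and tested in edgeR 4.0.16 (R 4.3.3; robust dispersions, glmQLFit and glmQLFTest with legacy estimation off, two-sided), with group as the only term and Benjamini-Hochberg adjustment over all tested genes. CPM used TMM-scaled library sizes. SE is the absolute log2 fold change over the square root of F, and 95% intervals use the test's degrees of freedom. The pipeline was tested on simulated data. Intervals rest on 3 libraries per group.

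The 10 genes, the lists and the tests were chosen with earlier results of these data known. The genes named were the 10, Trim28, up to 4 genes with the smallest adjusted p from each cushion list with a call and up to 2 from each list of other cell types, and the 5 genes most like the mean profile; Kdr and, among the signals, Erbb3 were named after their values were seen. Protein sequences were not analysed here, so the planned protein comparison was not made. Other settings were RLE, upper-quartile and no scaling, no filter, at least 1 CPM in 3 libraries, DESeq2 1.42.0, limma-voom (limma 3.58.1), non-robust edgeR, the replicate number as a block, covariates for the ribosomal RNA share and for Y-linked expression (summed Ddx3y, Eif2s3y, Kdm5d and Uty), each library left out and an adjusted p under 0.01. edgeR's legacy estimation was added after seeing the data.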

Additional observations from a re-analysis of the deposited data

How the results depend on the processing

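The number of calls, 720 over the whole table and 3 among the 10 genes, changed with some settings. With no filter 1251 genes were called, with Y-linked expression as a covariate 328, with the ribosomal RNA covariate 56 and at an adjusted p under 0.01 281, where the last is a stricter threshold; the cause of the others was not tested. Leaving out 1 library gave 301 to 1552 calls over the table and 1 to 3 among the 10 genes, with 322, 360, 301 and 308 over the table without control 1, 2 or 3 or CKO 3 and 1552 without the library labelled CKO 2. Prrx2 alone of the 10 was called without control 3 and without CKO 3. With the edgeR fit that held the ribosomal RNA covariate, 0 of the 10 genes were called and 1 of them, Prrx2, had an unadjusted p under 0.05, while DESeq2 and limma-voom without the covariate called 3 each. At an adjusted p under 0.01, 1 of the 10 was called. Nothing in the labels pairs same-numbered libraries of both groups. Their deviations from the group means correlated at -0.00, 0.02 and 0.00, which cannot exclude a pairing that the labels leave out. With the replicate block 676 genes and 3 of the 10 were called. No called member turned its direction under any of the 18 settings. At this depth and with 3 libraries per group, the narrowest 95% interval among the 7 genes not called, that of Snai2, ran from 0.747 to 1.02 as a fold.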
